A study of Rattus norvegicus with 47 samples.

Results

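Angptl8, Angptl4, Apoa5 and Apoc3 encode 4 secreted regulators of lipoprotein lipase, the enzyme that splits circulating triglyceride at the capillary wall. The genes were chosen by name, with earlier results of these arrays in view: Angptl8 and Angptl4 were known to move in opposite directions after retinoic acid (RA), so their levels after RA are given here as a description and were not tested. They are 4 of 14217 genes named on the arrays, each read by 1 probe set, and all 4 passed the filter on low signal in each of the 3 experiments. The data were 47 single-colour Affymetrix arrays of liver RNA, 1 female Sprague-Dawley rat of 8 weeks per array, in 13 groups.

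In the diet experiment, rats born to dams on a vitamin A-deficient diet were fed from weaning a diet with 0 mg (deficient, n = 5), 0.4 mg (marginal, n = 7), 4 mg (adequate, n = 6) or 100 mg (supplemented, n = 2) retinol per kg. In the RA time course, vitamin A-deficient rats with free access to food received all-trans-RA (about 100 µg), and livers were taken after 3 h (n = 3), 6 h (n = 3), 10 h (n = 4) or 16 h (n = 3), beside rats given vehicle and killed at 0 h (n = 3). In the intravenous experiment, rats raised on stock diet, primed with vehicle only and deprived of food overnight, were anesthetized and given about 25 µg of albumin-bound RA (10 µg per 100 g) into an iliac vein. They were killed after 30, 60 or 90 min (n = 3 each), beside rats injected with vehicle (0 min, n = 2). Every RA time was set against a single vehicle group killed at time 0, so RA, the time of day and the time since handling cannot be told apart in either RA experiment. The deficient rats thus model a lack of dietary retinol from weaning, the RA time course adds RA to deficient liver, and the intravenous experiment adds RA to the liver of fasted rats raised on stock diet.

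Lipoprotein lipase acts in muscle and fat on triglyceride that the liver exports in very-low-density lipoprotein (VLDL) and the gut in chylomicrons. ANGPTL4 inactivates the enzyme in fat during fasting and is induced in liver and other tissues by fatty acids through PPAR receptors. ANGPTL8, which liver and fat make after feeding and under insulin, is linked to restraint of the enzyme in muscle and heart, and it can counter ANGPTL4 in fat. ApoC-III, an apolipoprotein carried on VLDL, hinders lipolysis and the uptake of remnants, while apoA-V, a scarce liver apolipoprotein, favours lipolysis.

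On the rat build GRCr8, Angptl8 lies at chr8:28652555-28654581, inside the span of Dock6, and Angptl4 at chr7:15252450-15259971. Apoc3 (chr8:55428172-55430352) and Apoa5 (chr8:55446329-55460509) belong to a cluster with Apoa1 and Apoa4 that spans 36.56 kb. RefSeq promoter windows (GRCr8, 250 bases before to 50 after a transcript start) were matched for 3 of the 4 genes. The 250 bases before the start are printed 5′ to 3′ for the pair that moved in opposite directions after RA and for Apoa5, so that their letters can be set side by side, and capitals mark the motif matches found by search.
Angptl8, chr8:28652305-28652554, plus strand: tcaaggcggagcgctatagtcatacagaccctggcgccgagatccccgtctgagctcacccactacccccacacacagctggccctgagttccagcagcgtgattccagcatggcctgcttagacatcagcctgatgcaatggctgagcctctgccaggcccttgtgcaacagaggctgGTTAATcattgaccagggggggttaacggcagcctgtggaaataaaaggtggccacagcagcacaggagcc
Angptl4, chr7:15258682-15258931, minus strand: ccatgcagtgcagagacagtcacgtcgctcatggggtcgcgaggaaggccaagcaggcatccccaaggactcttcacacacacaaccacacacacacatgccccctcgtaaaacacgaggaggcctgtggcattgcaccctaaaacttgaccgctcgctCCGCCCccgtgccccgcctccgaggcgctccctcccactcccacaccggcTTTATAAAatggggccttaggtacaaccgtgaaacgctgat
Apoa5, first listed start, chr8:55457621-55457870, plus strand: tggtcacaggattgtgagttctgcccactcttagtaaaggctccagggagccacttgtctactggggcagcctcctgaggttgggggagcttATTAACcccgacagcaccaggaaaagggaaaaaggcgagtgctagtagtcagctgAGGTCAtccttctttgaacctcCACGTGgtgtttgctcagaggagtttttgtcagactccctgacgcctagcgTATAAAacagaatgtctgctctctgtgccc
The letters AGGTCA, a core element bound by nuclear receptors that include the RA receptors, were searched on both strands and occur in 16.2% of 33469 RefSeq windows of 300 bases. Apoa5 held this element once, 103 bases before its start, and the windows of Angptl8 and Angptl4 held none. Direct repeats of it with spacers of 1, 2, 4 or 5 bases, the forms that receptor dimers bind, were in no member window and in at most 0.0538% of all windows. The HNF1 element GTTAAT (7.45% of windows) was found in Angptl8 at 71 bases and, on the opposite strand, in Apoa5 at 158 bases before the start. Angptl4 held a GC box, CCGCCC (33.1% of windows), at 91 bases and a TATA box, TATAAA (14.2% of windows), at 39 bases, overlapped by a match on the opposite strand at 41 bases. Apoa5 held a TATA box at 30 bases and an E-box, CACGTG (6.42% of windows), at 81 bases. A second listed Apoa5 start, whose window overlaps the first, also held the sterol response element TCACCCCAC (0.484% of windows) on the opposite strand at 112 bases. A match describes letters only and says nothing about binding in these livers.

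Values are the deposited log2 signals, in which each array has a median of 0 and a difference of 1 is a 2-fold difference. Of 11 measured hepatocyte markers, 11 had group means above the array median in each group. Of 11 measured adipocyte markers, 4 to 5 did so, led by Cidec (3.80) and Cfd (2.06), and the mean of the 11 was −1.29 to 0.61 per array, while the defining markers Adipoq, Plin1, Lep and Fabp4 averaged −1.97, −1.12, −2.63 and −2.54. Arrays 1 and 2 at 16 h after RA stood apart: their median correlation with the other arrays of that experiment was 0.676 and 0.726. Array 3 had 0.774, against 0.770 to 0.789 at 10 h and 0.769 to 0.814 in vehicle rats. At 16 h the median of all probe sets was lower than in vehicle rats (difference −0.39, and −0.06 after quantile normalization). Quantile normalization also moved that median by 0.17 at 10 h, and by −0.12 and −0.11 in marginal and supplemented minus deficient livers. In the diet experiment the 3' to 5' difference of the GAPDH control, a sign of RNA quality, reached 1.37 on adequate array 5 and 0.92 on deficient array 5 and was at most 0.54 on the others. Deficient arrays 1, 2 and 5 and adequate array 5 had the 4 lowest median correlations with the other diet arrays (0.786 to 0.817). Results of lists are also given without them, which leaves only deficient arrays 3 and 4, so a lost call may come from fewer arrays. Arrays of that experiment fall into 2 runs of database identifiers, 12 and 8 arrays, which were used as a covariate.

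Angptl8 was lower in deficient livers than in any other diet group. Its log2 signals were 2.26, 2.07, 2.16, 2.49 and 2.95 in the 5 deficient livers, against a range of 3.37 to 3.69 with a median of 3.53 in the 6 adequate livers. All 5 deficient values lay below all 6 adequate ones, and the group means were 2.39 ± 0.35 in deficient and 3.53 ± 0.15 in adequate livers (SD). Such separation between diet groups, here and below, is a description, and its share over all probe sets is not given. The fitted difference was −1.06 ± 0.195 (SE, 95% interval −1.46 to −0.66), a 2.09-fold lower signal with an adjusted p of 0.00207 by limma, in a comparison that called 1.08% of 27595 probe sets. The mean of 10 stellate cell markers was 0.26 to 0.66 in deficient and 0.47 to 1.30 in adequate livers. Their median difference was −0.15, beside −0.11 for all probe sets, and 7 of the 10 were below 0. Lrat, also an RA target, and Lum were called lower. Lum averaged −3.60 in deficient livers and lost its call without the arrays of low correlation (adjusted p = 0.284 by limma). The part of these markers in the result was not tested. In bulk liver RNA, fewer cells of a type and less RNA per cell cannot be told apart.

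**Figure D1:**
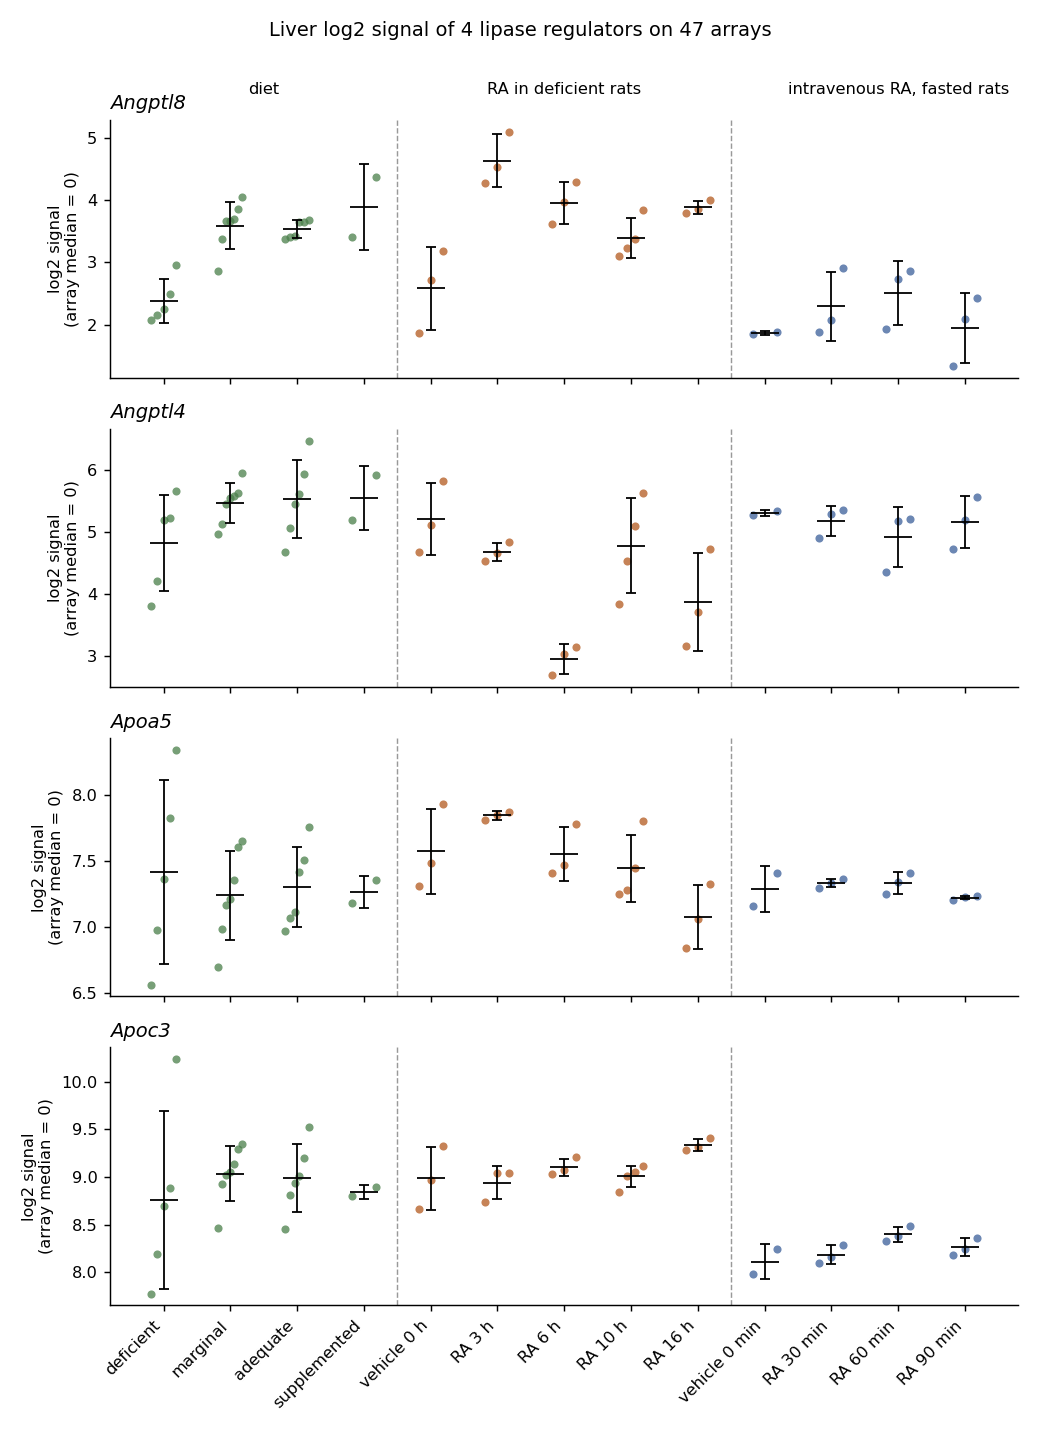
Log2 signal (y axis) of Angptl8, Angptl4, Apoa5 and Apoc3, 1 panel per gene, in the 13 groups of the 3 experiments (x axis). Dots are single arrays and bars are the group mean with its SD; all 5 deficient Angptl8 values (2.07 to 2.95) lie below the adequate ones (3.37 to 3.69), and all 3 Angptl4 values at 6 h after RA (2.69 to 3.15) lie below the vehicle ones (4.68 to 5.83).

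The separation was present within each run. In the first run the deficient livers had 2.49 and 2.95 and the adequate livers 3.37 to 3.69 (n = 4). In the second run the deficient livers had 2.07 to 2.26 (n = 3) and the adequate livers 3.42 and 3.65. The fitted difference was −0.81 in run 1 and −1.37 in run 2, and the difference between the runs did not pass the test (adjusted p = 0.556). Fitted alone, the second run kept the call (adjusted p = 0.0106) and the first run did not (adjusted p = 0.292). The call was also lost when the variance was moderated without an intensity trend (adjusted p = 0.0597).

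Small amounts of dietary retinol accompanied the higher level. Marginal livers, fed 0.4 mg per kg, ranged from 2.86 to 4.05 with a median of 3.66, and 6 of the 7 lay above all 5 deficient livers. The fitted difference between marginal and deficient livers was 1.15 ± 0.187 (SE, adjusted p = 0.000412), where 1.69% of probe sets were called. Supplemented livers had 4.38 and 3.41, both above all deficient values, and the fitted difference from deficient livers was 1.31 ± 0.279 (SE, adjusted p = 0.0182), where 0.42% of probe sets were called. That last call rests on the higher of the 2 supplemented livers: without it the difference was 0.83 with an adjusted p of 0.724, and after quantile normalization it was 1.06 with an adjusted p of 0.0895. Relative to the median of all probe sets, the marginal difference was 1.01 as deposited and 0.84 after quantile normalization, and the supplemented difference 1.15 and 1.01.

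Above the deficient level no dose dependence of Angptl8 was resolved. Marginal minus adequate was 0.09 (95% interval −0.27 to 0.45) and supplemented minus adequate was 0.25 (95% interval −0.28 to 0.79), and neither passed the test (adjusted p of 1 and 0.9995). These comparisons called 0% of probe sets, or 0 by limma with 916 at an unadjusted p under 0.05, and 0.0109%, or 3 probe sets. The 3 means from 0.4 to 100 mg per kg (3.60 ± 0.38, 3.53 ± 0.15 and 3.89 ± 0.69) lay within each other's spread.

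Angptl4 was not called in any diet comparison. Its signals were 3.81, 4.22, 5.20, 5.66 and 5.23 in the deficient livers, against 4.68 to 6.47 with a median of 5.54 in adequate livers. Only deficient livers 1 and 2 lay below all adequate ones, and the other 3 overlapped them. Deficient minus adequate was −0.58 ± 0.267 (SE, 95% interval −1.13 to −0.04), with an unadjusted p of 0.036 and an adjusted p of 0.350. Run 1 gave −0.10 and run 2 gave −1.13 (adjusted p of their difference 0.466), and both low livers belong to the second run. Marginal livers (5.47 ± 0.33) and supplemented livers (5.56 ± 0.51) had means near the 5.54 ± 0.63 of adequate livers (SD), and marginal minus deficient was 0.56 ± 0.255 (SE, adjusted p = 0.277).

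Apoa5 and Apoc3 had diet group means within each other's spread, and their deficient livers were the most scattered. Apoa5 was 6.56, 6.97, 7.37, 7.83 and 8.34 in deficient livers, against 6.97 to 7.76 in adequate livers, so that 2 deficient values lay above and 1 below all adequate ones. Deficient minus adequate was 0.28 ± 0.222 for Apoa5 (SE, adjusted p = 0.643). On quantile-normalized values, however, Apoa5 passed the test as higher in deficient than in adequate livers by 0.49 (adjusted p = 0.00854), and as lower than in deficient livers by 0.51 in marginal (log2 difference −0.51, adjusted p = 0.00453) and 0.71 in supplemented livers (log2 difference −0.71, adjusted p = 0.0137).

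Apoc3 was 7.77, 8.19, 8.70, 8.88 and 10.24 in deficient livers, against 8.46 to 9.52 in adequate livers. The highest value in each group came from array 5, the array with the largest GAPDH 3' to 5' difference of its group. Deficient minus adequate was −0.13 ± 0.334 (SE, 95% interval −0.81 to 0.55, adjusted p = 0.913), with 0.51 in run 1 and −0.65 in run 2. The plot of GAPDH difference against signal shows both arrays at the right, and their part in the spread of Apoc3 was not tested.

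**Figure D2:**
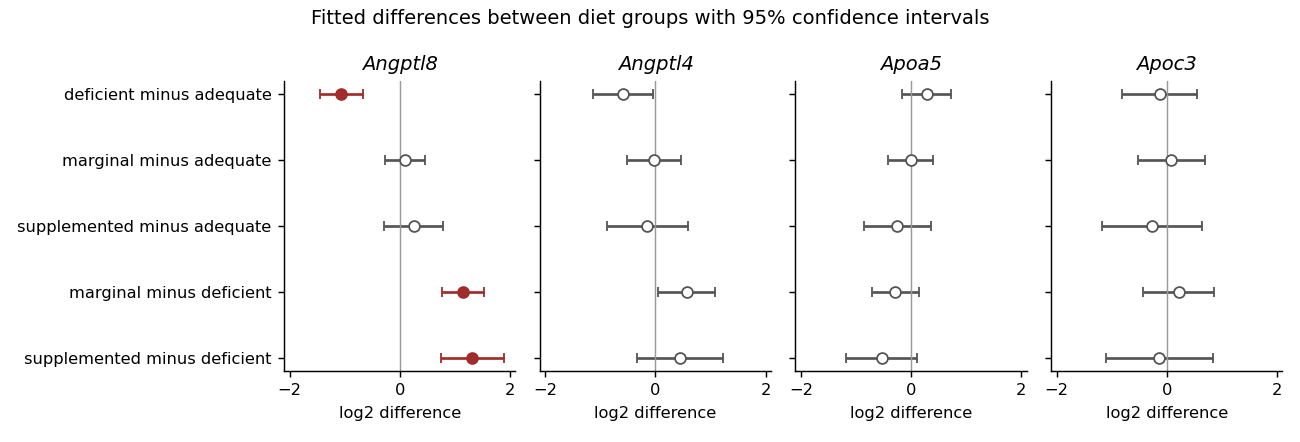
Fitted log2 difference of each gene in the 5 diet comparisons, with 95% confidence intervals as bars. Filled red points passed an adjusted p of 0.05: Angptl8 in deficient minus adequate (−1.06), supplemented minus deficient (1.31) and marginal minus deficient (1.15), and no point of the other 3 genes.

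**Figure D3:**
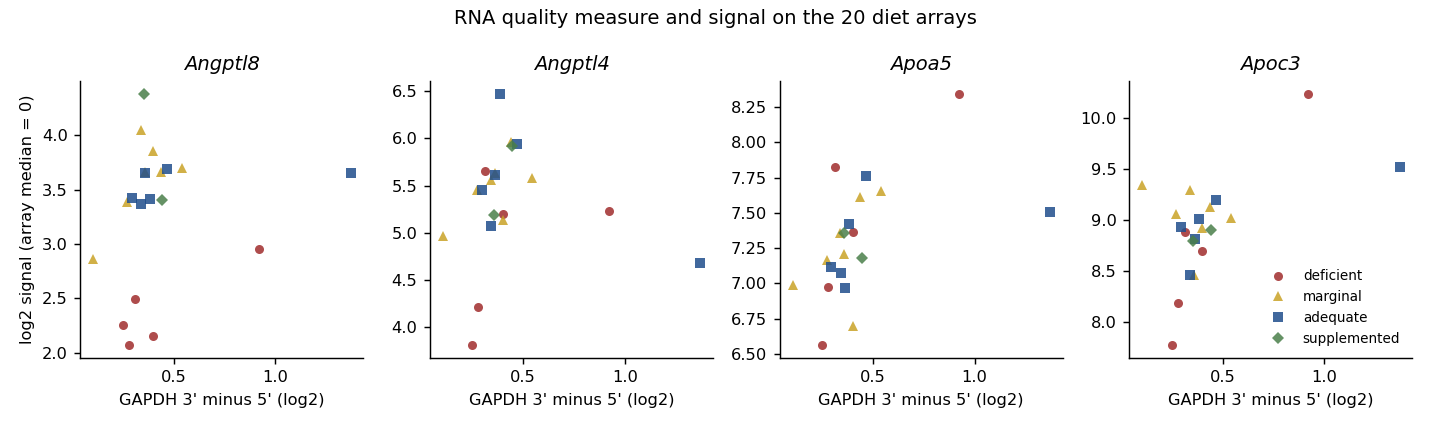
Log2 signal of the 4 genes (y axis) against the log2 GAPDH 3' minus 5' difference (x axis) on the 20 diet arrays, coloured by diet. Adequate array 5 (1.37) and deficient array 5 (0.92) lie to the right of all other arrays (at most 0.54) and carry the highest Apoc3 signals of their groups.

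After RA was given to deficient rats, Angptl8 stood highest at the first time sampled. The 3 vehicle livers had 1.86, 3.18 and 2.72. At 3 h the signals were 5.10, 4.54 and 4.28, at 6 h they were 3.97, 3.62 and 4.29, at 10 h they were 3.38, 3.11, 3.24 and 3.85, and at 16 h they were 3.79, 3.86 and 4.01. Every liver at 3, 6 and 16 h, and 3 of the 4 at 10 h, lay above all vehicle livers. Such separation in either RA experiment, with 2 to 4 arrays per group, is a description, and its share over all probe sets is not given. The mean differences from vehicle were 2.06 at 3 h (4.16-fold), 1.37 at 6 h (2.59-fold), 0.81 at 10 h (1.75-fold) and 1.30 at 16 h (2.47-fold). Without vehicle replicate 1, the lowest array, the 10 h difference was 0.44. That array also had the largest GAPDH 3' to 5' difference of the time course (0.95, against at most 0.78 on the others).

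The vehicle mean of this experiment, 2.59 ± 0.67 (SD, n = 3), was in the range of the deficient livers of the diet experiment, and the means from 6 h onward (3.96 ± 0.33, 3.39 ± 0.32 and 3.89 ± 0.11) were in the range of the livers fed retinol in that experiment. In descending order the means were 3 h, 6 h, 16 h, 10 h and vehicle. Only 6 h and 16 h, as neighbours in that order, lay within each other's spread, and the other steps exceeded the larger SD of the pair. The 4 comparisons with vehicle called 0.0762% of 28869 probe sets at 3 h, 0.201% at 6 h, 0.488% at 10 h and 6.11% at 16 h.

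**Figure D4:**
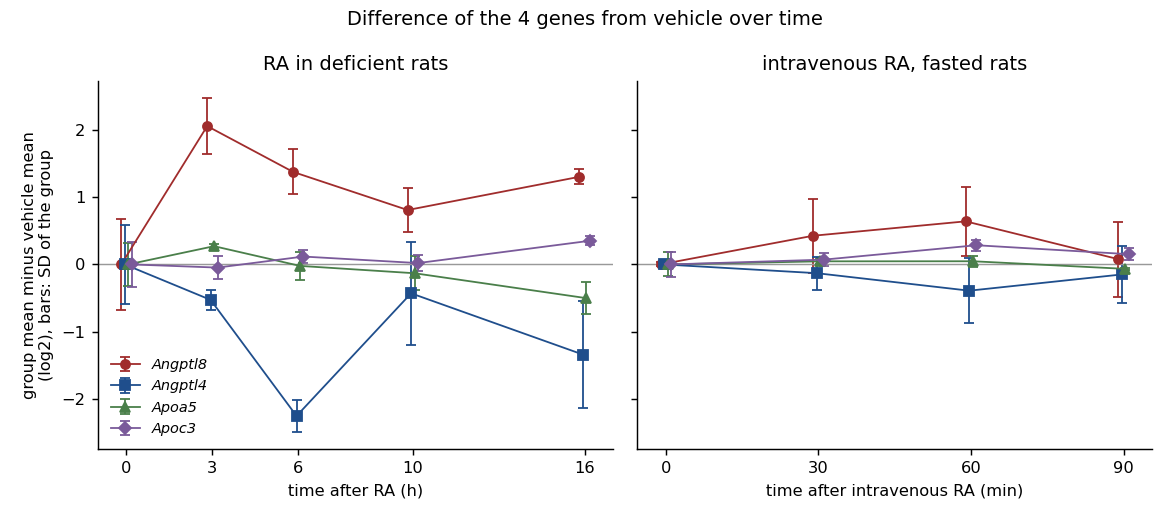
Mean log2 signal minus the vehicle mean for the 4 genes, at 0 to 16 h after RA in deficient rats (left) and at 0 to 90 min after intravenous RA in fasted rats (right); bars are the SD of the group. Angptl8 is 2.06 above vehicle at 3 h and Angptl4 2.25 below it at 6 h, while Apoa5 and Apoc3 stay within 0.51 of it.

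Angptl4 was lowest at 6 h. The vehicle livers had 5.12, 5.83 and 4.68. The 3 h livers had 4.54, 4.84 and 4.67, and 2 of them lay below all vehicle livers. The 6 h livers had 3.04, 2.69 and 3.15, all below every vehicle liver and below every other array of the series. The 10 h livers spread from 3.85 to 5.63, with 4.54 and 5.11 between, and the 16 h livers had 4.73, 3.17 and 3.72. The mean differences from vehicle were −0.53 at 3 h, −2.25 at 6 h (4.76-fold lower), −0.43 at 10 h and −1.34 at 16 h (2.53-fold lower). The smaller of these rest on single arrays: at 3 h the difference was −0.22 without vehicle replicate 2 and −0.79 without vehicle replicate 3. At 10 h it was −0.12 without vehicle replicate 2 or 10 h replicate 2, −0.70 without vehicle replicate 3 and −0.71 without 10 h replicate 3.

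In order, the vehicle, 10 h and 3 h means of Angptl4 (5.21 ± 0.58, 4.78 ± 0.76 and 4.68 ± 0.15) were within each other's spread, and 16 h (3.87 ± 0.79) and 6 h (2.96 ± 0.24) followed in steps beyond it. The extremes of the pair therefore came at different times, Angptl8 at 3 h and Angptl4 at 6 h. Relative to the median of all probe sets, the 10 h differences were 1.00 for Angptl8 and −0.24 for Angptl4 as deposited, and 1.09 and −0.14 after quantile normalization. At 16 h the scaling mattered more: after quantile normalization the difference from vehicle was 1.91 for Angptl8 and −0.72 for Angptl4. Relative to that median, the 16 h differences were 1.69 for Angptl8 and −0.95 for Angptl4 as deposited, and 1.97 and −0.66 after quantile normalization.

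Apoa5 and Apoc3 stayed within 0.51 of vehicle over the same hours. Apoa5 was 7.82, 7.85 and 7.88 at 3 h and 7.06, 6.84 and 7.32 at 16 h, against 7.31, 7.93 and 7.49 in vehicle livers. Its mean differences from vehicle were 0.27, −0.02, −0.13 and −0.50 from 3 to 16 h, and the last was −0.11 relative to the median of all probe sets. Apoc3 was 9.41, 9.29 and 9.31 at 16 h, against 9.32, 8.97 and 8.67 in vehicle livers. Its mean differences were −0.05, 0.12, 0.02 and 0.35, and the last was 0.08 after quantile normalization. When single arrays were left out, Apoa5 ranged from 0.14 to 0.45 at 3 h, and Apoc3 from 0.19 to 0.52 at 16 h. The signs of Apoa5 at 6 and 10 h and of Apoc3 at 3, 6 and 10 h depended on which vehicle array was left out. Relative to the median of all probe sets, the 10 h difference of Apoa5 was 0.06 as deposited and −0.07 after quantile normalization.

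Within 90 min of intravenous RA none of the 4 genes moved as far as the first pair did over hours. Angptl8 was low in the vehicle livers, at 1.85 and 1.89, and had 1.88, 2.07 and 2.92 at 30 min, 1.92, 2.87 and 2.73 at 60 min and 2.42, 1.33 and 2.08 at 90 min. The 3 livers at 60 min lay above both vehicle livers, with a mean difference of 0.64 (1.56-fold), while those at 90 min lay on both sides of them (difference 0.08). The group means from 0 to 90 min were 1.87 ± 0.03, 2.29 ± 0.55, 2.51 ± 0.51 and 1.94 ± 0.56. Neighbours in the order of these means lay within the larger SD of the pair, whereas 60 min exceeded vehicle by 0.64, more than the larger SD of 0.51. Without 30 min replicate 3 the 30 min difference of 0.43 was 0.11. These comparisons called 0.0879% of 22763 probe sets at 30 min, 0.387% at 60 min and 0.505% at 90 min.

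Angptl4 had 5.28 and 5.35 in the vehicle livers, 5.36, 5.29 and 4.91 at 30 min, 4.36, 5.19 and 5.22 at 60 min and 5.19, 4.73 and 5.57 at 90 min. All 3 values at 60 min lay below both vehicle values, by 0.39 in the mean, and the 30 and 90 min groups overlapped vehicle. Without 60 min replicate 1, the lowest of the 3, the mean difference was −0.11. Apoa5 was between 7.16 and 7.41 on all 11 arrays. Apoc3 was between 7.98 and 8.48, and its mean difference of 0.28 at 60 min was 0.08 after quantile normalization. With 2 vehicle arrays, the sign of the Apoa5 differences at each time and of the Apoc3 difference at 30 min depended on which of them was left out.

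Over all 13 groups the Angptl8 means formed an upper and a lower range. The upper range ran from 4.64 at 3 h after RA down to 3.39 at 10 h and held each RA group of the time course and the marginal, adequate and supplemented groups of the diet experiment. The lower range ran from 2.59 in the vehicle rats of the time course through 2.39 in deficient rats to 1.87 in the vehicle rats of the intravenous experiment, and it held all 4 groups of that experiment, whose rats had eaten stock diet before the fast. Of the 12 steps between neighbouring groups, 10 lay within the larger SD of the pair, and the exceptions were the step below 3 h and the step between these ranges. The latter, from 10 h to the time-course vehicle, was 0.81, and 0.44 without vehicle replicate 1. Single arrays overlapped across it: vehicle replicate 2 had 3.18 and 10 h replicate 2 had 3.11. For Angptl4, 10 of 12 steps lay within the spread, with 16 h and 6 h after RA at the bottom. For Apoa5 and Apoc3 12 and 10 of 12 lay within it. The experiments were separate sets of arrays, and the feeding state differed between them, so levels set across them are a description.

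By Pearson correlation over the 13 group means, each experiment centred on the mean of its own groups, among 11651 named genes, the genes most like Angptl8 were Dnajc14 (r = 0.952), a co-chaperone, Gfm2 (r = 0.948), a mitochondrial translation factor, and Alas1 (r = 0.945), the first enzyme of heme synthesis. Single arrays were scattered within groups: in the time-course vehicle livers Dnajc14 spread from −1.26 to 1.41, Gfm2 from −3.42 to 0.33 and Alas1 from 3.22 to 5.43. Alas1 averaged 4.29 in these vehicle livers, 6.08 at 3 h, 5.45 at 6 h, 4.99 at 10 h and 5.09 at 16 h after RA. It averaged 4.20 in deficient and 4.90 in adequate livers. The genes most like Angptl4 were Fas (r = 0.943), a death receptor, Dmpk (r = 0.917), a protein kinase, and Ctns (r = 0.916), a lysosomal cystine transporter. Fas averaged 1.50 at 6 h after RA (range 0.86 to 2.43), against 2.74 in vehicle livers (range 2.33 to 2.98). At 6 h Dmpk spread from −3.41 to 0.88 and Ctns from −1.62 to 1.72. Apoa5 was most like St6galnac4, a sialyltransferase, Col6a3, a collagen chain, and Zfp787 (r = 0.954, 0.946 and 0.939), and Apoc3 most like Serpina1, a plasma protease inhibitor, Rup2 and the complement component C3 (r = 0.925, 0.905 and 0.882). Among the members themselves r was −0.18 for Angptl8 with Angptl4 and −0.70 for Apoa5 with Apoc3. The points share arrays, scaling and, within an experiment, handling, and these values are a description.

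Few other genes of triglyceride transport were called between diets. Of 49 measured genes in 5 lists (other ANGPTL genes, lipases and cofactors, plasma apolipoproteins, VLDL assembly and lipoprotein receptors), 0 were higher and 1 was lower in deficient than in adequate livers, with 16 at an unadjusted p under 0.05. Their median difference was −0.24, beside −0.11 for all probe sets. The called gene was Apoa4, an apolipoprotein of the same cluster as Apoa5 and Apoc3, which fell by 1.87 (log2 difference −1.87 ± 0.345 SE, adjusted p = 0.00213) and was higher in marginal than in deficient livers by 1.37 (adjusted p = 0.0232). In the first run alone that marginal difference of Apoa4 was −0.18. Without deficient replicate 4 the deficient and adequate livers differed in 7 of the 49 genes, while calls over all probe sets rose from 299 to 1493. The list of lipoprotein lipase, other lipases and their cofactors, 11 measured, had 0 calls in this comparison, with 4 at an unadjusted p under 0.05.

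Among 29 measured transcription factors known to act on the members, 1 was called lower in deficient livers: Nr1h4, the bile acid receptor FXR, which acts on the Apoc3 and Apoa5 promoters in other systems. It averaged 3.33 in deficient and 4.66 in adequate livers, a fitted difference of −1.23 ± 0.22 (SE, adjusted p = 0.00158), and it was higher by 1.13 in marginal (adjusted p = 0.00219) and 1.42 in supplemented than in deficient livers (adjusted p = 0.0247). Without the 4 diet arrays that stood apart, which leaves deficient arrays 3 and 4, none of these passed the test. The differences were then −0.69 (adjusted p = 0.288), 0.56 (adjusted p = 0.539) and 0.85 (adjusted p = 0.293).

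Angptl8 is known as a gene that follows insulin, LXR and SREBP1c. Of 21 measured genes of that lipogenic program, 10 were lower and 1 was higher in deficient than in adequate livers, where 1.08% of all probe sets were called, and the list median was −0.96. The lower ones included Scd, which desaturates fatty acids (−3.65 ± 0.448 SE, adjusted p = 5.19e-06), Pnpla3, a lipid droplet protein (−2.97 ± 0.589 SE, adjusted p = 0.00465), and Fasn, the fatty acid synthase (−2.66 ± 0.302 SE, adjusted p = 2.12e-06). The exception was Abcg5, a sterol exporter, which was higher by 2.21 (adjusted p = 0.00827). Marginal livers had 11 genes higher and 2 lower than deficient livers (list median 1.08), and supplemented livers 6 higher and 1 lower (list median 1.20). The count of 11 calls in deficient livers was 6 without the intensity trend and 5 with the 4 arrays of low correlation left out.

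Angptl4 is a known target of PPARA, the fatty acid sensor of the fasted liver. Of 20 other fasting and PPARA genes measured, 0 were called by limma between deficient and adequate livers, with 4 at an unadjusted p under 0.05 and 3 called after quantile normalization, and the list median was 0.13. In the glucocorticoid and FOXO1 list (17 measured), 1 gene was called, Sds, a serine-degrading enzyme, which was higher by 1.76 in deficient livers (adjusted p = 0.00266). In the clock list (16 measured), Bhlhe40 was lower by 1.01 (log2 difference −1.01, adjusted p = 0.0328), a call lost under 14 of 21 alternatives. Of 11 measured RA targets, 4 were lower in deficient livers, namely Cyp26a1, Rarb, Lrat and Tgm2. Tgm2 lost the call under 13 of 21 alternatives, and without the arrays that stood apart Rarb was −0.62 and no longer called.

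**Figure D5:**
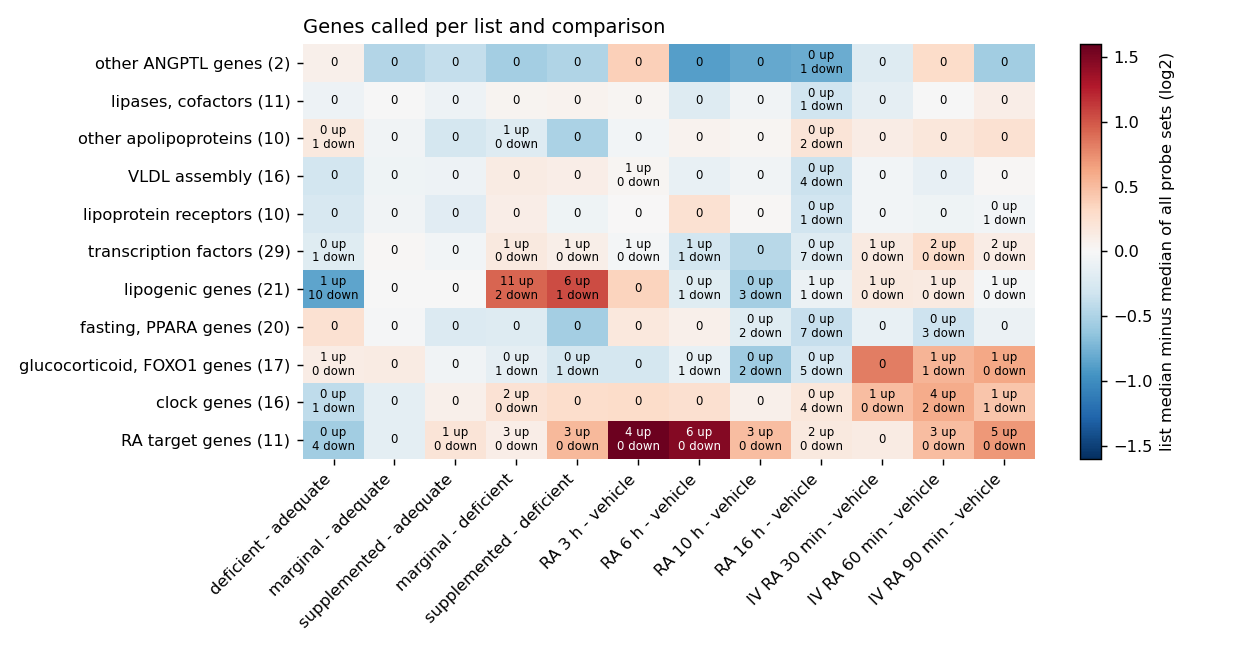
Median log2 difference of each gene list minus the median of all probe sets (colour) in the 12 comparisons (columns); the text in each cell gives the numbers of genes called higher and lower, and row labels the number measured. The lipogenic list is lowest in deficient against adequate livers (10 of 21 lower), and the RA target list has calls in each RA comparison except 30 min.

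In the RA time course few genes of triglyceride transport were called before 16 h. At 3 h, 1 of 49 was called, Cidec, a lipid droplet protein that also marks fat cells, which was higher by 1.38 ± 0.28 (SE, adjusted p = 0.0411), a call kept under 3 of 11 alternatives. At 6 and 10 h 0 were called by limma, with 4 and 12 at an unadjusted p under 0.05 and 1 and 3 called after quantile normalization. At 16 h 6.11% of all probe sets were called, 1701 lower and 64 higher. In these lists 9 genes were lower and 0 higher, with a list median of −0.67 beside −0.39 for all probe sets. They were Angptl6 (−1.54 ± 0.335 SE, adjusted p = 0.00848), a circulating angiopoietin-like protein, Mttp (−1.16 ± 0.241 SE, adjusted p = 0.00658), which loads lipid onto apoB, Apob, Apom, P4hb, Cideb, Ces1d, Scarb1 and Glce. The other ANGPTL gene measured, Angptl2, was not called in any of the 12 comparisons.

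The 16 h count rests on how that group was treated. It was 5 after quantile normalization and 0 without the intensity trend. Of the genes named above, Mttp, Apob and P4hb kept the call after quantile normalization. Angptl6 (adjusted p = 0.102 by limma) and the rest of those named lost it. When single arrays were left out the count was between 1 (without vehicle replicate 2) and 24 (without 16 h replicate 3). Calls over all probe sets were 215 and 4498 in these 2 settings. Markers of other liver cells had lower means, as did the median of all probe sets (difference −0.39). The mean of 8 Kupffer and myeloid markers was 2.51 to 2.87 at 16 h, against 3.19 to 3.63 in vehicle livers. That of 7 endothelial markers was 1.02 to 1.60, against 1.94 to 2.64. Their calls (Clec4f, Cd5l, Lyz2 and Kdr, all lower) were lost after quantile normalization. The 10 stellate markers had a mean of −0.66 to 0.74, against 0.13 to 1.42. They were mixed, with 2 called higher (Lrat and Rgs5) and 2 lower (Col3a1 and Reln). After quantile normalization Lrat, Rgs5 and Reln lost the call (adjusted p of 0.06, 0.0886 and 0.389 by limma), and Col3a1 kept it (adjusted p = 0.0144). The part of all these markers in the result was not tested.

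Of the transcription factors, Nr0b2 (SHP), a repressor of other nuclear receptors, was the 1 of 28 called at 3 h, at 4.96 against 2.27 in vehicle livers (2.69 ± 0.419 SE, adjusted p = 0.0024), a call lost without vehicle replicate 1. It was called again at 6 h (2.77, adjusted p = 0.000845), when Onecut1 (HNF6), a hepatocyte factor, was lower by 2.18 (log2 difference −2.18, adjusted p = 0.0109). At 16 h, 7 of 28 factors were lower, beside 6.11% of all probe sets called, mostly lower. Among the 7 were the clock-linked Rora (−2.32), Onecut1 (−1.36) and the hepatocyte factor Foxa2 (−1.23). After quantile normalization each of these 7 lost its call, with adjusted p by limma of 0.104 for Rora, 0.418 for Onecut1 and 0.1085 for Foxa2. The count of 1 there was another factor of the list. Without the intensity trend the comparisons of the time course called 0 probe sets at 3 h, 5 at 6 h, 2 at 10 h and 40 at 16 h, so that the calls of single genes depend on it.

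The lipogenic list had 0 of 21 genes called by limma at 3 h, when Angptl8 was highest (4 at an unadjusted p under 0.05; list median 0.39), 1 lower at 6 h (Lpin1, −1.64, adjusted p = 0.0148) and 3 lower at 10 h (Me1, Thrsp and Lpin1; list median −0.74). At 16 h 1 was higher (Thrsp, 1.13, adjusted p = 0.0329) and 1 lower (Abca1). The calls of Me1 and Lpin1 at 10 h and of Thrsp at 16 h were each lost under 7 of 12 alternatives. The fasting list had 0 of 20 called at 6 h, when Angptl4 was lowest, with 1 at an unadjusted p under 0.05. At 10 h Cpt1a (−1.43, adjusted p = 0.0067) and Pdk4 (−0.86, adjusted p = 0.0469), which steer fuel use toward fatty acids, were lower, and Pdk4 lost that call under 8 of 12 alternatives. At 16 h 7 of 20 were lower, beside 6.11% of all probe sets called, mostly lower. Pdk4 was lower by the most (−1.51, adjusted p = 0.00039), and 1 of the 20 was called after quantile normalization.

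In the clock list 0 of 16 were called at 3 and 6 h by limma, with 4 and 3 at an unadjusted p under 0.05. At 16 h, where 6.11% of all probe sets were called, mostly lower, 4 were lower (Bmal1, Clock, Npas2 and Nfil3). Bmal1, Clock and Npas2 each lost the call under 6 of 12 alternatives, quantile normalization among them (adjusted p of 0.132, 0.158 and 0.172). In the glucocorticoid and FOXO1 list, Igfbp1, an insulin-repressed gene, was lower by 2.51 at 16 h (log2 difference −2.51, adjusted p = 0.00131). RA targets had 4 of 11 genes higher at 3 h, 6 at 6 h, 3 at 10 h and 2 at 16 h, led by Cyp26a1, which degrades RA and was 8.67 higher at 6 h (adjusted p = 9.63e-06). The 2 at 16 h, Cyp26b1 and Lrat, lost the call after quantile normalization.

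After intravenous RA, 0 of 49 triglyceride transport genes were called at 30 and 60 min by limma, with 5 and 9 at an unadjusted p under 0.05, and 1 was lower at 90 min, Cd36, a fatty acid transporter (−0.87, adjusted p = 0.0464), a call kept under 2 of 10 alternatives. Nr0b2 was again higher, by 2.35 at 60 min (adjusted p = 0.00624) and 1.96 at 90 min (adjusted p = 0.0141), and Cebpb was higher by 1.44, 1.23 and 1.53 at 30, 60 and 90 min, calls kept under 4, 4 and 8 of 10 alternatives. At 60 min, the time at which Angptl4 lay below both vehicle livers, 3 of 20 fasting genes were lower: Pdk4 (−2.39, adjusted p = 0.00441), Ehhadh (−1.91, adjusted p = 0.0472) and Acot1 (−2.85, adjusted p = 0.0233). The Ehhadh call was kept under 1 of 10 alternatives, and 0 of the 20 were called without vehicle replicate 1. In the same livers 6 of 15 clock genes were called, among them Dbp (2.99) and Per2 (2.24), which were higher, and Npas2 (−3.36), which was lower, calls kept under 3, 5 and 6 of 10 alternatives. Insig1, the insulin- and sterol-responsive brake on SREBP, was the 1 lipogenic gene called at each time (1.47, 1.18 and 1.07 higher). Without the intensity trend these comparisons called 1, 2 and 28 probe sets from 30 to 90 min.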

How the data were processed

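Liver RNA (Trizol, then RNeasy columns, per the labels' protocols) was read on 47 single-colour arrays, and the authors deposited 1 table of log2 signals for 31099 probe sets, made with GCOS per the submitters' processing notes (version not given). How the signals were scaled is not given in the sources used here; each deposited array has a log2 median of 0. Gene names came from the platform annotation: 20832 probe sets had 1 gene, 436 several and 9831 none, and 57 control probe sets were left out. The number of arrays per group limits precision.

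Each experiment was fitted with limma 3.58.1 (R 4.3.3): lmFit on group means, the run as a covariate in the diet experiment, and eBayes with an intensity trend. Testing was limited to probe sets whose signal exceeded the array's 40th percentile in at least 2 arrays (27595, 28869 and 22763), and a call is a Benjamini-Hochberg adjusted p under 0.05 over them. The labels give 1 rat per array and do not say which rats were littermates. The script was tested on simulated data.

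The members and all gene lists were chosen with earlier results of these data known. Members were tested in the diet comparisons only. Up to 4 called genes per list and comparison were named by size of change (up to 3 in the lipogenic, fasting, glucocorticoid, clock and RA target lists); genes beyond these were named because a count of 5 or fewer contained them, or to give the time of a gene already named. Alternatives were quantile normalization, no filter, no trend, array weights, a replicate block, each run alone and leaving out arrays.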

Additional observations from a re-analysis of the deposited data

How the results depend on the processing

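Among the member results and their alternatives, 669 values kept their direction and side of the threshold or moved by less than 1 SD, 20 moved further, 3 passed the threshold anew and 8 lost it. The 669 include RA comparisons, where members were not tested, and diet comparisons without a call, and neither had a call to lose. The 8 losses are those of Angptl8. Angptl8 in deficient minus adequate livers stayed called when each array was left out (−1.19 to −0.97) and without the arrays that stood apart, an alternative chosen after seeing the data (−1.16, adjusted p = 0.0294). It lost the call without the intensity trend (−1.06, adjusted p = 0.0597) and in the first run alone (−0.81, adjusted p = 0.292). Its marginal minus deficient difference lost the call in the first run alone (1.04, adjusted p = 0.116). Its supplemented minus deficient difference lost it after quantile normalization (1.06, adjusted p = 0.0895), without the trend (1.31, adjusted p = 0.210), in the first run alone (1.17, adjusted p = 0.140) and without supplemented replicate 1 (range when arrays were left out 0.83 to 1.80). The causes were not tested, but a single run has fewer arrays. Apoa5 passed only after quantile normalization (0.49, −0.71 and −0.51 for deficient minus adequate, supplemented minus deficient and marginal minus deficient). At 16 h that normalization gave 1.91, −0.72, −0.20 and 0.0761 for Angptl8, Angptl4, Apoa5 and Apoc3, and Apoa5 was −0.25 without the arrays that stood apart, which leaves 1 array at 16 h and so no spread of its own. After intravenous RA it gave −0.0413, 0.0847 and 0.00367 for Apoc3 at 30, 60 and 90 min. Leaving out single arrays there gave −0.079 to 0.172, −0.0783 to 0.173 and −0.191 to 0.06 for Apoa5, and −0.0593 to 0.20, 0.155 to 0.414 and 0.0217 to 0.281 for Apoc3. Apoa4 in marginal minus deficient livers was −0.18 in the first run alone.

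Same-numbered arrays showed little joint deviation (median r of 0.047 in the diet experiment, against −0.014 for unlike numbers). This cannot settle whether the numbers pair the rats, since a shared litter or day may leave little trace in such a correlation. With a replicate block, Angptl8 was −1.07 in deficient minus adequate (adjusted p = 0.00598), 1.19 in marginal minus deficient (adjusted p = 0.000945) and 1.18 in supplemented minus deficient livers (adjusted p = 0.739). The numbers of probe sets called there were 243, 311 and 15. Calls over all probe sets in deficient minus adequate livers were 299, against 64 without the trend, 86 without the arrays that stood apart and 156 to 1493 when single arrays were left out. At 16 h they were 1765, against 325 after quantile normalization, 40 without the trend and 215 to 4498. The second run holds no supplemented liver, and each member has 1 probe set, so the alternatives that need more gave no value.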
